A study of Mus musculus with 20 samples.

Results

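Cadmium-exposed and control mouse livers were compared after 9 months, the longer of the 2 exposure times in the series. The comparison rests on 5 input libraries of the 20 samples, chosen by their labels alone: 3 from wild-type mice given cadmium chloride (CdCl2) at 100 mg/L for 9 months, and 2 from wild-type controls of the same time. All 5 are total liver RNA, fragmented and sequenced as the input of an m6A sequencing assay, that is, before any antibody pull-down of methylated RNA. They therefore measure RNA abundance. The same comparison at 3 months, with 2 control and 3 exposed livers, is used below only as a point of reference. The labels give WT as the genotype of every animal and name no transgene. They do not give age, sex, strain, the hour of collection, or whether each replicate is a different animal. A p given here thus reflects the spread among these libraries alone, which may be technical.

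The liver has its own circadian clock. The activators Arntl (also called Bmal1), Clock and Npas2 switch on period, cryptochrome and REV-ERB genes, whose products act back on the activators, and also a layer of output transcription factors such as Dbp and Tef that drive metabolic genes. Cadmium taken up by mouth accumulates in liver, where metallothioneins bind it.

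The labelled tissue matched its markers: 12 hepatocyte marker genes summed to 69569 to 99186 CPM (each count divided by the library's count over all genes, times 1000000). Counts over genes were 3958171 and 7460923 in controls 1 and 2, and 6054493, 6546991 and 4545353 in cadmium livers 1 to 3, so a floor of 3 counts corresponds to 0.402 to 0.758 CPM. The median correlation of a library with the other 4 was 0.923 to 0.933 in log2 CPM across genes, and the biological coefficient of variation was 0.349 within controls and 0.417 within cadmium livers. Some libraries stood apart in a limited set of genes. Pancreas markers, mostly digestive enzymes, summed to 13011 CPM in control 2 and 2560 CPM in cadmium liver 1, against 22.3 to 42.9 CPM in the other 3. All 22 tested pancreas genes were lower in the cadmium group, with a median log2 fold change of -2.98. Without control 2 the fitted median was 7.45, which has no defined size, since control 1 had few or no counts of most of these genes. Short transcripts also leaned lower: in 4 equal bins of transcript length, from shortest to longest, the median log2 fold change was -0.09, -0.01, 0.02 and 0.06. In a bulk sample, fewer cells of a type and less RNA per cell cannot be told apart.

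Dbp, a PAR bZip transcription factor gene driven directly by the clock, was the single gene to pass the threshold, and it rose. It read 2.27 and 1.34 CPM in the controls and 27.7, 36.2 and 29.0 CPM in the cadmium livers. Every cadmium liver lay far above both controls and the replicates of each group lay close together, at 1.81 ± 0.66 (SD, n = 2) against 31.0 ± 4.55 CPM (SD, n = 3). The log2 fold change was 4.21 ± 0.43 (SE), an 18.5-fold difference, with an adjusted p of 0.0107 in edgeR's quasi-likelihood test with Benjamini-Hochberg adjustment. Of 12654 genes tested, 0.0079% passed an adjusted p of 0.05. With each library left out in turn, the log2 fold change stayed between 3.90 and 4.50, while the call held without cadmium liver 2 and was lost without any 1 of the other 4. Dbp also missed the threshold in limma voom with library weights, with counts summed over transcripts, in a fit over all 10 input libraries (adjusted p = 0.346 in edgeR) and without both pancreas-rich libraries.

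The next clock genes in the ranking ran the same way without passing. Per3, a period gene, read 5.81 and 8.44 CPM in controls against 45.3, 48.4 and 37.4 CPM in cadmium livers. Its log2 fold change was 2.64 ± 0.34 (adjusted p = 0.0565 in edgeR). Tef, a close relative of Dbp, read 59.4 and 51.6 against 170, 239 and 180 CPM, with a log2 fold change of 1.90 ± 0.28 (adjusted p = 0.0875 in edgeR). In both genes the groups were widely separated and the controls lay close together. The labels give no hour of collection, so for Dbp and the other clock genes exposure and hour cannot be told apart.

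Dbp (gene ID 13170) spans 45705247 to 45710203 of chromosome 7, Per3 (18628) spans 151003657 to 151044713 of chromosome 4 and Tef (21685) spans 81811229 to 81826863 of chromosome 15, in the deposited table, whose build appears to be mm10. Dbp overlaps Sphk2, so reads where the genes overlap could count for either. The 250 bases before the RefSeq start of these 3 genes and of Ciart, a clock repressor described below, are shown because clock factors act on such sequences (build GRCm38.p6, printed 5′ to 3′ on the strand of the gene). The windows are chr7:45704997-45705246 (+) for Dbp, chr4:151044666-151044915 (-) for Per3, chr15:81811164-81811413 (+) for Tef and chr3:95882229-95882478 (-) for Ciart. Capitals mark the E-box CACGTG and the D-box TTATGNAA, searched on both strands with the RORE TAGGTCA.
Dbp: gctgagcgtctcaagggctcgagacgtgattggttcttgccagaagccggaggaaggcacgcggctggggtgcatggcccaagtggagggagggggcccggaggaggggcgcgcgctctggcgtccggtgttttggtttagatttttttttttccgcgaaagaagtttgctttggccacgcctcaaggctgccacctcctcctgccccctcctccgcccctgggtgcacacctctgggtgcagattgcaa
Per3: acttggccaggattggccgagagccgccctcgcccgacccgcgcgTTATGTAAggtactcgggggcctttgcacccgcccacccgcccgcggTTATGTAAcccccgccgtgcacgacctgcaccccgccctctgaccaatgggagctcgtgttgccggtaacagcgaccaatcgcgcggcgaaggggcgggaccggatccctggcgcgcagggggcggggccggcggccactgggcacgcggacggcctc
Tef: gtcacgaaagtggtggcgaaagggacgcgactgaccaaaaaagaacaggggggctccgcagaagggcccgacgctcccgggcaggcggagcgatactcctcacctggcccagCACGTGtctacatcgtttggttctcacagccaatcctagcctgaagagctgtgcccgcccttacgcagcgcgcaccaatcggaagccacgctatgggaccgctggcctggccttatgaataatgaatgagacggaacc
Ciart: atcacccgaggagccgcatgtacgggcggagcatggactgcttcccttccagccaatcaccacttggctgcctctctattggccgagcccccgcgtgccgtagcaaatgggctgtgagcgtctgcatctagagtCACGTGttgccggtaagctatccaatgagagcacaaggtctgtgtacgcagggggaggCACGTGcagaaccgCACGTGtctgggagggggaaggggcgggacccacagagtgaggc
Per3 carried 2 D-boxes, 205 to 198 and 158 to 151 bases before the start. Tef carried 1 E-box at 138 to 133 bases, and Ciart carried 3, at 116 to 111, 58 to 53 and 44 to 39 bases. Tef has 2 RefSeq windows, of which the nearer to the start of the counted transcript is printed. The RefSeq start of that window lies 185 bases inside the Tef span given above. The E-box of Tef thus lies within the span of the counted transcript, not before it. Dbp carried none of these letters in this window. Such matches are not rare and are a description, not a site of binding: 6.02% of 32851 RefSeq windows held the E-box, 3.07% the D-box and 2.23% the RORE. By gene, with a match in any of its windows, the shares were 6.86%, 3.63% and 2.55% of 27025 genes. The counts that follow are by gene. Of the 15 leading genes above controls, described next, 13 had a window, of which 2 held an E-box and 2 a D-box. Of the 15 below controls 11 had a window, of which 1 held an E-box and none a D-box.

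**Figure D1:**
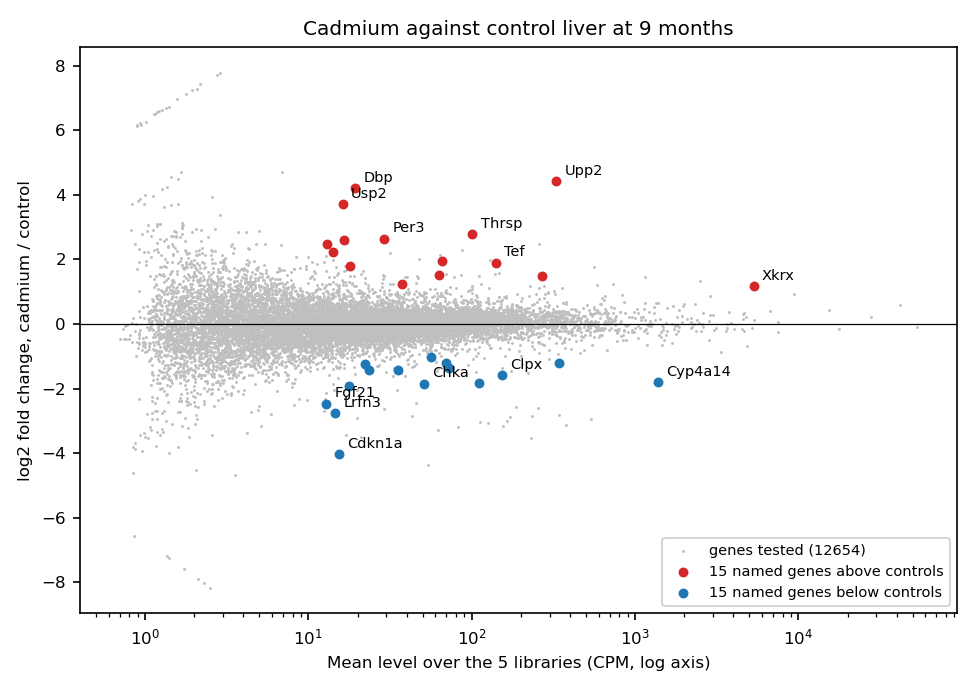
Log2 fold change of cadmium over control (vertical) against mean level over the 5 libraries (CPM, log axis) for 12654 genes, with the 15 leading genes of each direction in colour. Dbp, at 4.21, was the only gene past the threshold, and Upp2 lay higher, at 4.43, with a wider spread.

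Genes named from here on follow a rule: the 15 in each direction with the smallest p, non-overlapping groups and a mean of at least 5 CPM, and the 4 with the smallest p from each gene list. Since p chose them, their values are a description. Groups did not overlap for 22.1% of all genes, 8% higher and 14.1% lower. An unadjusted p under 0.05 was reached by 5.78%, made up of 2.96% higher and 2.82% lower. An adjusted p under 0.1 was reached by 9 genes (0.0711%): Dbp, Per3, Tef, Thrsp, Kcnk5, Xkrx and Upp2 above controls, and Chka and Fgf21 below.

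Among the leading genes above controls, Thrsp, which promotes fatty acid synthesis in liver, read 18.4 and 27.9 CPM in controls against 88.4, 230 and 141 CPM (log2 fold change 2.78 ± 0.44, adjusted p = 0.0986 in edgeR). Upp2, a uridine phosphorylase that breaks uridine down, read 24.3 and 28.4 against 238, 1108 and 253 CPM. The controls lay close together and cadmium liver 2 lay far above the other cadmium livers, and the log2 fold change of 4.43 ± 0.72 became 3.23 without it. Kcnk5, a potassium channel gene, read 29.8 and 20.8 against 63.9, 115 and 98.1 CPM. Xkrx, a member of the XK-related family, was abundant in every library, at 3316 and 2956 against 7615, 5672 and 7086 CPM. Its log2 fold change was small but even, at 1.17 ± 0.19.

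The carriers Slc20a1, which takes up phosphate, and Slc46a3, a lysosomal transporter, had log2 fold changes of 1.24 ± 0.25 and 1.501 ± 0.31. Slc20a1 read 22.5 and 20.0 against 52.0, 45.4 and 46.9 CPM, with little spread within either group. Map2k6, a kinase upstream of p38, read 3.54 and 3.62 against 16.7, 26.3 and 14.5 CPM, and Spry4, an inhibitor of receptor tyrosine kinase signalling, read 9.10 and 6.03 against 28.7, 15.7 and 30.8 CPM. LOC108168411, an uncharacterised gene that overlaps Gfra1, had a log2 fold change of 2.60 ± 0.52, and 1.99 without cadmium liver 2. The remaining 3 of the 15, Per2, Nr1d2 and Usp2, are clock genes and are described with them.

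Among the leading genes below controls, Chka, choline kinase alpha, which starts phosphatidylcholine synthesis, read 114 and 69.0 CPM in controls against 28.7, 17.6 and 26.4 CPM (log2 fold change -1.85 ± 0.27, adjusted p = 0.0875 in edgeR). Fgf21, a hormone that the liver secretes in fasting, read 20.0 and 30.8 against 4.13, 4.43 and 4.84 CPM, with the cadmium livers almost identical to each other (-2.47 ± 0.40, adjusted p = 0.0986 in edgeR). Fgf21 overlaps Fut1 in the table. Clpx, the recognition subunit of a mitochondrial matrix protease, read 258 and 257 against 73.5, 54.7 and 122 CPM.

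Crat, carnitine acetyltransferase, read 106 and 126 against 30.7, 40.6 and 59.0 CPM. Hsdl2, a peroxisomal dehydrogenase, and Insig2, which holds back cholesterol synthesis, had log2 fold changes of -1.01 ± 0.23 and -1.22 ± 0.27. Gstm2, a glutathione transferase, read 35.1 and 41.2 against 13.4, 12.4 and 15.6 CPM. The groups of all 4 genes were apart, with cadmium liver 3 the closest to the controls for Crat, Hsdl2 and Gstm2 and cadmium liver 1 for Insig2.

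Cdkn1a, which encodes the cell cycle inhibitor p21, read 28.3 and 41.7 CPM in controls and 0.330, 0.916 and 5.50 CPM in cadmium livers. Cadmium livers 1 and 2 held 2 and 6 counts of it, and the log2 fold change of -4.02 ± 0.73 became -5.67 without cadmium liver 3. Tbx3 and Id2, which encode transcription regulators, had log2 fold changes of -1.42 ± 0.33 and -1.21 ± 0.28. Ptpn9, a tyrosine phosphatase gene, read 36.6 and 32.4 against 14.2, 13.1 and 14.5 CPM, a narrow spread in both groups. St5 had a log2 fold change of -1.93 ± 0.44, and Lrfn3, a synaptic adhesion gene, had -2.77 ± 0.61, or -3.61 without cadmium liver 3. Snora81, a small nucleolar RNA, read 212 and 180 against 56.2, 30.2 and 73.5 CPM. It lies inside Eif4a2, so its counts may hold reads of that gene. The last of the 15, Cyp4a14, is described with its family.

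**Figure D2:**
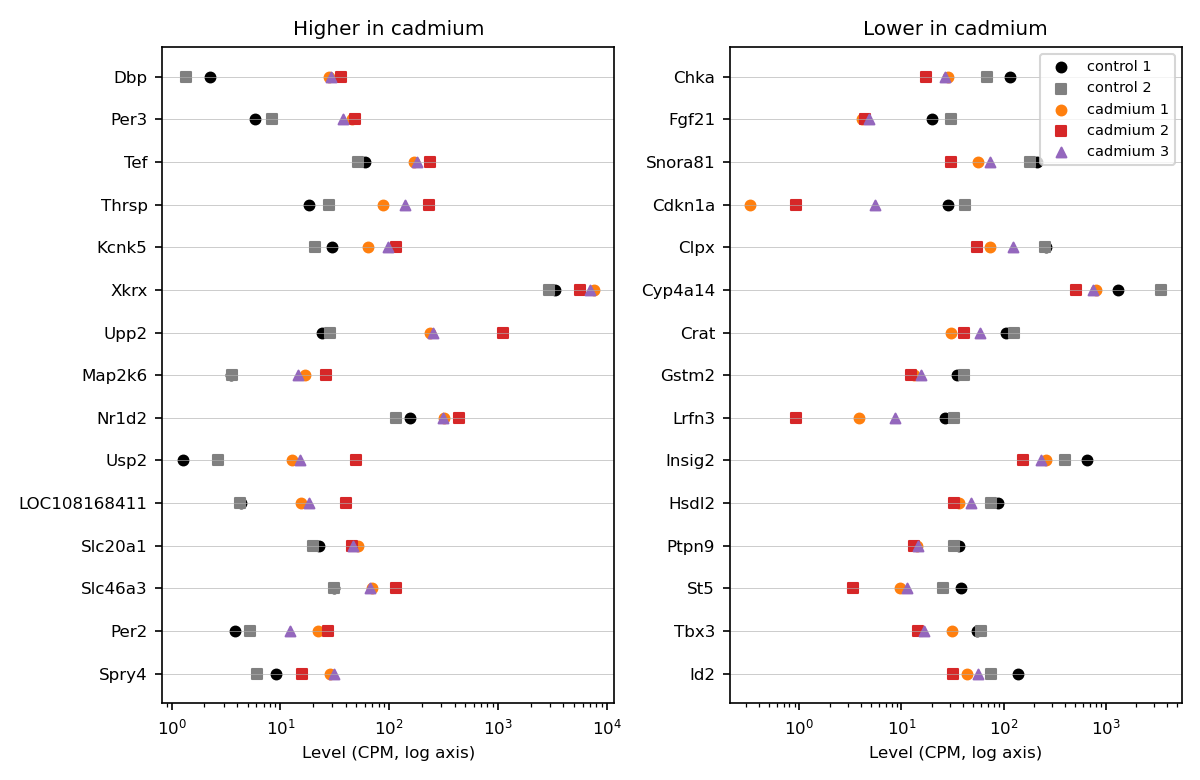
Level in each of the 5 libraries (CPM, log axis) for the 15 leading genes above controls (left) and the 15 below (right), with 1 marker per library. Groups do not overlap because the rule asked for it, and the 2 control markers of Dbp sit at 2.27 and 1.34 CPM against 27.7 to 36.2 CPM in cadmium.

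Clock genes went both ways, with the 3 activators below controls and most period and REV-ERB genes above. Of 19 tested activator and repressor genes 14 had a positive log2 fold change, against 50.2% of all genes, and their median was 0.56 against 0.00 over all genes. An unadjusted p under 0.05 was reached by 6 above and 3 below, and groups did not overlap for 8 above and 5 below. Over all genes the shares above and below were 2.96% and 2.82% by p, and 8% and 14.1% by non-overlap. The median stayed between 0.41 and 0.69 with each library left out.

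The activators lay below controls. Arntl read 14.4 and 24.0 CPM in controls against 5.12, 4.74 and 0.880 CPM, a log2 fold change of -2.34 ± 0.61. Clock, its partner, read 188 and 160 against 129, 64.6 and 107 CPM (-0.74 ± 0.28). Npas2, which can replace Clock, read 3.79 and 4.83 CPM in controls and had 0 counts in all 3 cadmium livers, so it was at least 8.01-fold lower (against a floor of 3 counts in each). All 3 activators had non-overlapping groups, and their adjusted p in edgeR was 0.496, 0.77 and 0.479.

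Among the period and cryptochrome genes, which encode the negative arm, Per2 read 3.79 and 5.23 CPM in controls against 22.3, 27.2 and 12.3 CPM (log2 fold change 2.23 ± 0.48). Per1 read 13.6 and 38.5 against 47.7, 53.5 and 54.6 CPM, with control 2 near the cadmium livers, and its 1.00 ± 0.40 became 2.07 without control 2. Cry2 read 21.0 and 30.2 against 36.7, 51.3 and 52.8 CPM (0.91 ± 0.31), while Cry1 lay slightly below controls in all 3 cadmium livers (-0.45 ± 0.40). Ciart, a repressor of the activators, read 0.505 and 0.402 CPM in controls, from 5 counts in all, against 2.48, 27.8 and 3.52 CPM. Its log2 fold change of 4.72 ± 1.25 rested in part on cadmium liver 2 and was 2.70 without it.

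Of the REV-ERB genes, which encode repressors of Arntl, Nr1d2 read 156 and 115 CPM in controls against 320, 434 and 312 CPM (1.47 ± 0.28, adjusted p = 0.252 in edgeR). Nr1d1 did not separate: it read 92.7 and 57.6 against 142, 29.5 and 125 CPM, with cadmium liver 2 below both controls. Bhlhe41 (DEC2) had a log2 fold change of 2.04 ± 0.96 at low counts, or 2.95 without control 1. Bhlhe40 (DEC1) and Rora had 0.56 ± 0.28 and 0.39 ± 0.26. The casein kinase genes Csnk1d and Csnk1e, whose products tag period proteins, had -0.30 ± 0.22 and 0.59 ± 1.04.

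Of 24 tested output genes 14 lay above zero, with a median of 0.37 that ranged from 0.15 to 0.50 with each library left out. An unadjusted p under 0.05 was reached by 8 above and 4 below, against 2.96% and 2.82% of all genes. Groups did not overlap for 6 above and 6 below, against 8% and 14.1% of all genes. Nfil3, a repressor that competes with Dbp for the same D-box sites, read 37.6 and 47.1 CPM in controls against 19.3, 17.9 and 13.4 CPM, opposite to Dbp (-1.27 ± 0.30, adjusted p = 0.407 in edgeR). Hlf, the third PAR bZip gene, read 41.9 and 35.1 against 42.8, 64.6 and 68.0 CPM, the smallest difference of the 3 relatives (0.67 ± 0.27). Usp2, a clock-driven deubiquitinase gene, read 1.26 and 2.68 against 12.9, 49.3 and 15.2 CPM (3.70 ± 0.73, or 2.76 without cadmium liver 2). Wee1, a mitotic kinase gene under clock control, read 2.53 and 6.43 against 14.5, 38.6 and 24.2 CPM (2.52 ± 0.56, or 3.50 without control 2).

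Other outputs rested more on 1 library. Noct, a rhythmic phosphatase gene, read 6.82 and 6.17 CPM in controls against 5.12, 42.9 and 12.8 CPM, so that its log2 fold change of 1.75 fell to 0.47 without cadmium liver 2. Gys2, liver glycogen synthase, read 143 and 185 against 268, 456 and 332 CPM and kept all 3 cadmium livers above (1.16 ± 0.32). On the lower side beside Clpx and Nfil3 were Hspa1a, a heat shock gene, at 19.7 and 9.38 against 2.97, 1.83 and 5.94 CPM (-1.96 ± 0.58), Dtx4 (-1.40 ± 0.53) and Leo1 (-1.30 ± 0.69). The cold-inducible genes Cirbp and Rbm3 lay near zero, at 0.02 ± 0.42 and -0.07 ± 0.44, with overlapping groups.

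**Figure D3:**
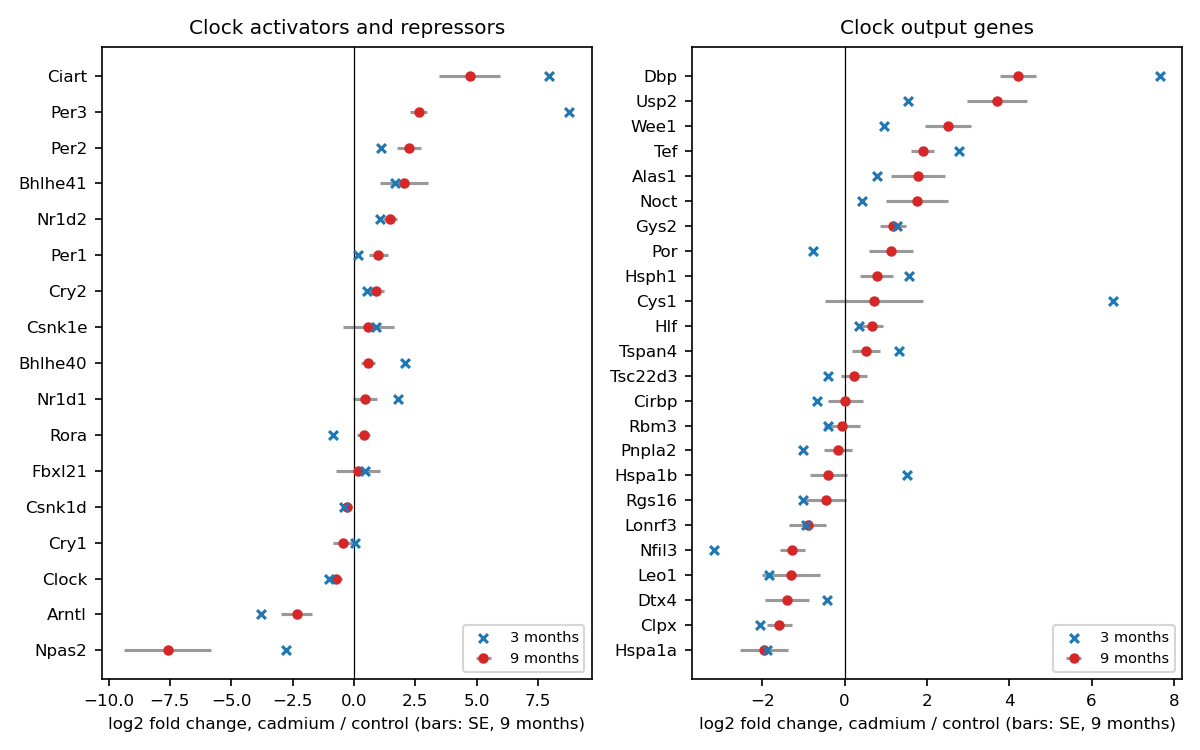
Log2 fold change of the clock activators and repressors reported here (left) and of the output genes (right), with SE bars at 9 months and crosses for the 3-month comparison. The activators Arntl, Clock and Npas2 lie left of zero and Per2, Per3, Nr1d2, Dbp, Tef and Usp2 right of it, and the fitted value of Npas2 has no defined size because its cadmium counts are 0, nor have the 3-month crosses of Dbp, Per3, Ciart and Cys1, with at most 1 control count.

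Genes of cholesterol synthesis leaned higher. Of 27 tested genes 20 had a positive log2 fold change, with a median of 0.65, and 0.42 to 0.85 with each library left out. An unadjusted p under 0.05 was reached by 7 above and 1 below, against 2.96% and 2.82% of all genes. Groups did not overlap for 3 above and 1 below, against 8% and 14.1% of all genes. The list's summed level was 3006 and 3212 CPM in controls against 2399, 3814 and 3963 CPM, so cadmium liver 1 lay below both controls. Fdft1, squalene synthase, read 33.6 and 57.5 CPM in controls against 54.8, 109 and 78.8 CPM, so cadmium liver 1 lay within the controls. Stard4, a cholesterol carrier, read 241 and 168 against 268, 488 and 429 CPM (1.03 ± 0.31). The 1 gene below at an unadjusted p under 0.05 was Insig2, whose product restrains the pathway.

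Fatty acid and triglyceride synthesis had no common direction, with 14 of 27 genes above zero and a median of 0.02. An unadjusted p under 0.05 was still reached by 6 above and 3 below, against 2.96% and 2.82% of all genes. Beside Thrsp, the fatty acid elongase gene Elovl6 read 28.8 and 21.7 CPM against 29.6, 45.2 and 77.4 CPM, and Lpin2, a phosphatidate phosphatase gene, read 202 and 238 against 319, 678 and 358 CPM. Agpat2, which makes phosphatidate, lay below, at 150 and 155 against 113, 49.5 and 77.2 CPM.

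Lipid droplet and fat uptake genes leaned the other way, with 10 of 27 above zero, a median of -0.16 and 0 above against 4 below at an unadjusted p under 0.05. The 4 were G0s2, an inhibitor of lipolysis (-1.07 ± 0.32, or -0.46 without control 1), the droplet coat genes Plin2 (-0.82 ± 0.26) and Plin4 (-1.57 ± 0.54), and Lipc, hepatic lipase (-0.75 ± 0.25). Plin2 read 812 and 539 CPM in controls against 298, 320 and 476 CPM. Groups did not overlap for 7 of the 27 on the lower side, against 14.1% of all genes. Over all genes 2.82% lay below at an unadjusted p under 0.05.

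The Cyp4a and acyl-CoA thioesterase genes, which are induced by PPARA in mouse liver, gave 6 of 18 above zero and a median of -0.25. At an unadjusted p under 0.05, 4 lay below and 0 above, against 2.82% and 2.96% of all genes. Cyp4a14, a fatty acid omega-hydroxylase gene, read 1334 and 3515 CPM in controls against 806, 508 and 748 CPM, and Cyp4a10 read 247 and 486 against 79.8, 154 and 142 CPM. Control 2 was the highest library for both, and their log2 fold changes of -1.81 ± 0.37 and -1.51 ± 0.37 became -0.83 and -0.83 without it. Acot1 and Acot2, thioesterases of the cytosol and mitochondria, had -1.35 ± 0.46 and -1.34 ± 0.54, and there control 1 was highest. Without it the value of Acot1 was -0.64. Without control 1 the list's median was -0.02. These are families of similar sequence whose reads may be shared.

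In the wider set of genes for fatty acid oxidation and other PPARA targets 12 of 30 genes lay above zero. The median was -0.15, and 0.00 without control 2, where all genes had 0.05. Against 2.82% of all genes, 3 of the 30 lay below at an unadjusted p under 0.05. Fgf21 and Pex11a, a peroxisome division gene, were among them. Pex11a read 106 and 114 CPM in controls against 83.1, 67.8 and 76.1 CPM (-0.48 ± 0.22).

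Carbohydrate genes went both ways. Pfkl, liver phosphofructokinase, lay below controls (-0.76 ± 0.29). Ugp2, which makes the UDP-glucose used for glycogen, read 503 and 444 against 738, 694 and 871 CPM (0.76 ± 0.22), beside Gys2 above. Of the glucose, fructose and glycogen list, 11 of 24 genes were above zero.

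The fasting and glucocorticoid lists gave 14 of 20 and 15 of 19 genes above zero, with medians of 0.22 and 0.45 that turned to -0.03 and -0.11 without cadmium liver 2. Tat, tyrosine aminotransferase, read 1253 and 1510 CPM in controls against 1932, 5906 and 1870 CPM (1.32 ± 0.48, or 0.48 without it). Klf15, a transcription factor gene of fasting, was even, at 183 and 192 against 304, 338 and 272 CPM (0.77 ± 0.25). The urea cycle list showed the same dependence, with a median of 0.23, and -0.05 without cadmium liver 2. Gldc, of glycine cleavage, read 209 and 250 against 136, 84.6 and 118 CPM (-0.98 ± 0.26).

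Bile acid synthesis genes lay mostly just below controls, with 3 of 16 above zero and a median of -0.24. Without both pancreas-rich libraries the median was 0.05, against 0.03 for all genes. Cyp8b1, which sets the ratio of cholic acid, read 402 and 601 CPM in controls against 232, 366 and 257 CPM (-0.76 ± 0.31). Cyp7b1, the oxysterol hydroxylase gene, was the exception on the upper side, at 531 and 175 against 552, 1130 and 550 CPM, and cadmium livers 1 and 3 only just cleared control 1. Abcg5 and Abcg8, which together export sterols into bile, had log2 fold changes of 0.67 ± 0.25 and 0.61 ± 0.28.

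In metal handling, the metallothioneins did not separate. Mt1 read 48.5 and 106 CPM in controls against 59.1, 190 and 52.6 CPM, and Mt2 read 8.59 and 26.4 against 10.6, 58.5 and 5.94 CPM. In both genes only cadmium liver 2 exceeded both controls, and the log2 fold changes of 0.45 ± 0.55 and 0.58 ± 0.83 became -0.47 and -1.10 without it. Of 14 tested genes for metal binding and zinc or cadmium transport 7 lay above zero and 7 below. Slc30a10, a manganese exporter, read 125 and 74.0 against 39.8, 15.3 and 56.3 CPM (-1.37 ± 0.40), and Slc11a2, the divalent metal transporter DMT1 that also carries cadmium, read 58.4 and 49.6 against 30.1, 21.995 and 45.5 CPM (-0.68 ± 0.29). Slc30a5, a zinc transporter of the secretory pathway, read 76.6 and 71.2 against 101, 101 and 103 CPM, a narrow spread in both groups (0.52 ± 0.22).

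Iron genes gave 5 of 19 above zero and a median of -0.11, but 11 of 19 and 0.02 without control 2, and 11 of 19 and 0.09 without both pancreas-rich libraries. The median of all genes was 0.05 without control 2 and 0.03 without both. Hamp, the iron hormone hepcidin, read 2074 and 1711 CPM in controls against 779, 955 and 1747 CPM, with cadmium liver 3 within the controls (-0.65 ± 0.30). Smad7, a feedback inhibitor of the pathway that drives hepcidin, lay below in all 3 cadmium livers, at 99.5 and 86.6 against 46.6, 21.995 and 69.1 CPM (-0.98 ± 0.35). Hmox1, haem oxygenase, which oxidative stress induces, read 12.4 and 16.9 against 3.30, 6.87 and 10.3 CPM. The NRF2 and antioxidant list had no common direction, with 10 of 22 above zero and a median of -0.03. Only Sod1 had an unadjusted p under 0.05, against 5.78% of all genes. Sod1, superoxide dismutase, read 49.8 and 125 against 38.98, 49.95 and 51.0 CPM, and its -0.89 ± 0.36 became 0.05 without control 2.

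Detoxification genes differed by family. Cyp2a5, a P450 gene that cadmium and other hepatotoxins are known to induce in mice, read 32.3 and 64.3 CPM in controls against 146, 277 and 131 CPM, with all cadmium livers above (1.98 ± 0.44, adjusted p = 0.371 in edgeR, or 2.68 without control 2). P450 families 1 to 3, Cyp2a5 included, gave 10 of 27 above zero. Their median was -0.14, or 0.07 without control 2, where all genes had 0.05. Alas1, the rate-limiting enzyme of haem synthesis, and Por, which passes electrons to P450 enzymes, were high in cadmium liver 2. Alas1 read 182 and 297 against 439, 1607 and 268 CPM, and its 1.77 ± 0.66 became 0.57 without that library.

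Glucuronosyltransferase and sulfotransferase genes gave 16 of 22 above zero and a median of 0.31. Sult2a8, a liver sulfotransferase gene, read 2326 and 1664 CPM in controls against 3726, 3577 and 3036 CPM (0.86 ± 0.22), and Sult1b1 and Ugt2b5 had 0.88 ± 0.29 and 0.66 ± 0.24. Without cadmium liver 2 the median was 0.07. Glutathione transferases and peroxidases gave 8 of 24 above zero and a median of -0.30, or 0.05 without control 2, where all genes had 0.05. Beside Gstm2, Gstk1 and Gstm1 lay below (-0.77 ± 0.26 and -0.67 ± 0.28), and Gstp1 lay above, at 170 and 221 against 212, 394 and 388 CPM (0.82 ± 0.33).

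Among secreted proteins, the major urinary proteins, pheromone carriers made by the liver mainly of male mice, gave 16 of 18 genes above zero and a median of 1.22. An unadjusted p under 0.05 was reached by 7 above and 0 below, against 2.96% and 2.82% of all genes. Mup12 read 62.4 and 23.7 CPM in controls against 152, 73.2 and 121 CPM (1.51 ± 0.38, or 1.01 without control 2 and 2.25 without control 1). Mup20 was highest in cadmium liver 2, at 697 and 511 against 717, 3165 and 647 CPM. The list's summed level was 12491 and 10529 CPM in controls against 10940, 29386 and 12655 CPM, so the groups overlapped, and the median was 0.31 without that library. The genes are near-identical copies, and how their shared reads were assigned is unknown. Male-biased liver genes, a list that shares members with this one, gave 19 of 22 above zero and a median of 0.68, or 0.18 without cadmium liver 2.

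Acute phase genes had no common direction, with 14 of 25 above zero and a median of 0.07. Their direction turned with the control kept: the median was 0.50 without control 2 (22 of 27 above zero) and -0.25 without control 1 (10 of 27). Saa1, serum amyloid A, read 6.57 and 27.3 CPM in controls against 99.6, 89.7 and 14.96 CPM, so cadmium liver 3 lay between the controls. Its relative in the response, Orm2, had 0 counts in both controls and 5.95, 4.74 and 0.220 CPM in the cadmium livers, at least 6.26-fold above the floor of the controls (3 counts in each), though the third liver had a single count. F8, coagulation factor VIII, was more even, at 31.3 and 34.9 against 60.0, 55.5 and 64.2 CPM (0.90 ± 0.24), and so was Xbp1, a factor of the secretory pathway, at 529 and 382 against 910, 774 and 681 CPM (0.86 ± 0.24).

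Immediate early genes lay mostly below controls. Of 19 such genes, transcription factors that stimuli induce within minutes, 17 lay below zero, with a median of -0.97. At an unadjusted p under 0.05, 6 lay below, against 2.82% of all genes. Groups did not overlap for 3 on the lower side, against 14.1% of all genes. Fos read 80.3 and 4.29 CPM in controls against 2.48, 7.48 and 4.84 CPM, so the difference was that of control 1, and its -2.92 ± 0.84 became 0.20 without it. Jun read 219 and 87.0 against 46.3, 69.7 and 87.6 CPM, and Jund 159 and 100 against 55.7, 57.1 and 93.3 CPM (-0.85 ± 0.27). The list summed to 1386 CPM in control 1, 549 CPM in control 2 and 328 to 681 CPM in cadmium livers. Without control 1 its median was -0.38, with 7 of 19 genes above zero.

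The p53 and apoptosis list gave 10 of 24 above zero and a median of -0.08. The heat shock list had no common direction, with 13 of 27 above zero. Its median was -0.07 and changed sign in 6 of 18 alternatives. The small heat shock gene Hspb1 and its co-chaperone Bag3 lay below beside Hspa1a (-1.35 ± 0.48, or -0.71 without control 1, and -0.999 ± 0.34), while Hspd1, the mitochondrial chaperonin, lay above (0.56 ± 0.25). Mcm7, a replication helicase subunit gene, read 27.3 and 21.0 CPM in controls against 9.25, 7.03 and 10.6 CPM (-1.37 ± 0.35). It was the lowest member of a cell cycle list that lay mostly above controls, with 15 of 18 genes above zero. That list's median was 0.30, or -0.30 without both pancreas-rich libraries.

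Hepatocyte transcription factor genes gave 5 of 22 above zero and a median of -0.25, which ranged only from -0.30 to -0.25 with each library left out. Groups did not overlap for 9 on the lower and 1 on the upper side, against 14.1% and 8% of all genes. Beside Tbx3, Foxa2, a pioneer factor gene of liver, read 37.6 and 37.8 CPM in controls against 16.2, 6.42 and 21.8 CPM (-1.32 ± 0.41), and Atf5 read 279 and 349 against 162, 48.9 and 182 CPM (-1.24 ± 0.42). Zbtb20, a zinc finger repressor gene, was the 1 on the upper side with an unadjusted p under 0.05, at 307 and 265 against 463, 524 and 330 CPM (0.69 ± 0.28). Hnf4a, a master regulator of hepatocytes, read 563 and 628 against 448, 511 and 484 CPM (-0.25 ± 0.23).

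Genes of the large protein complexes lay slightly below controls, beside the lean of short transcripts. Ribosomal protein genes gave 24 of 79 above zero with a median of -0.16, and respiratory chain subunits gave 22 of 71 with a median of -0.18. Without control 2 the medians were 0.12 and 0.08, against 0.05 for all genes. Of these genes 74 and 67 fell in the shortest length bin, and the medians of these 74 and 67 were -0.20 and -0.19, against -0.09 for the other genes of that bin in both cases. Groups did not overlap on the lower side for 25 of the 79 and 20 of the 71, against 14.1% of all genes. Apolipoprotein genes, of which 18 of 22 were in that bin, gave 4 of 22 above zero. Their median was -0.24, or 0.07 without control 2, where all genes had 0.05. At an unadjusted p under 0.05, 5 lay below, against 2.82% of all genes. Apoe read 5438 and 7299 CPM in controls against 3880, 3270 and 4440 CPM (-0.68 ± 0.21), and Apoc1 54.1 and 130 against 40.8, 40.8 and 37.0 CPM. What part transcript length and control 2 have in these lists was not tested beyond these values.

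The m6A machinery, the subject named in the study's title, gave 11 of 19 above zero and a median of 0.08. Mettl3, the catalytic subunit of the writer, read 11.6 and 5.90 CPM in controls against 7.27, 8.10 and 6.38 CPM, wholly within the range of the controls (-0.17 ± 0.50). Mettl14, its partner, read 4.295 and 5.63 against 5.12, 5.96 and 0.880 CPM (-0.24 ± 0.82). The reader and helicase gene Ythdc2 was the only member with an unadjusted p under 0.05, against 5.78% of all genes. It read 15.7 and 15.4 against 40.3, 15.7 and 29.0 CPM, where cadmium liver 2 barely cleared the controls. Wtap, a regulatory subunit of the writer, lay above both controls in all 3 cadmium livers, at 20.0 and 21.2 against 32.7, 24.4 and 29.9 CPM (0.54 ± 0.29).

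Markers of other cell types differed less than the pancreas genes. Kupffer cell and macrophage markers gave 14 of 16 above zero and a median of 0.45 (0.25 to 0.64 with each library left out), but their sums overlapped, at 653 and 446 CPM in controls against 925, 729 and 600 CPM. C1qb, a complement gene of these cells, read 13.9 and 8.98 against 48.2, 12.8 and 27.3 CPM, and Cd5l, a protein they secrete, read 94.5 and 61.5 against 153, 115 and 101 CPM (0.73 ± 0.27). Lymphocyte markers summed to 6.72 to 20.6 CPM and neutrophil markers to 1.07 to 5.95 CPM over the 5 libraries, near the limit of detection. Endothelial and stellate markers had medians of 0.19 and -0.08. Of 3 tested erythroid genes Hba-a1 and Hbb-bs, the globins, lay below in all cadmium livers (-1.37 ± 0.44 and -0.73 ± 0.29). Without control 2 their values were -0.81 and -0.42. The other erythroid gene, Alas2, did not differ, at 22.5 and 24.4 against 30.6, 16.2 and 23.3 CPM (log2 fold change 0.04). The part of these markers in the differences above was not tested.

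**Figure D4:**
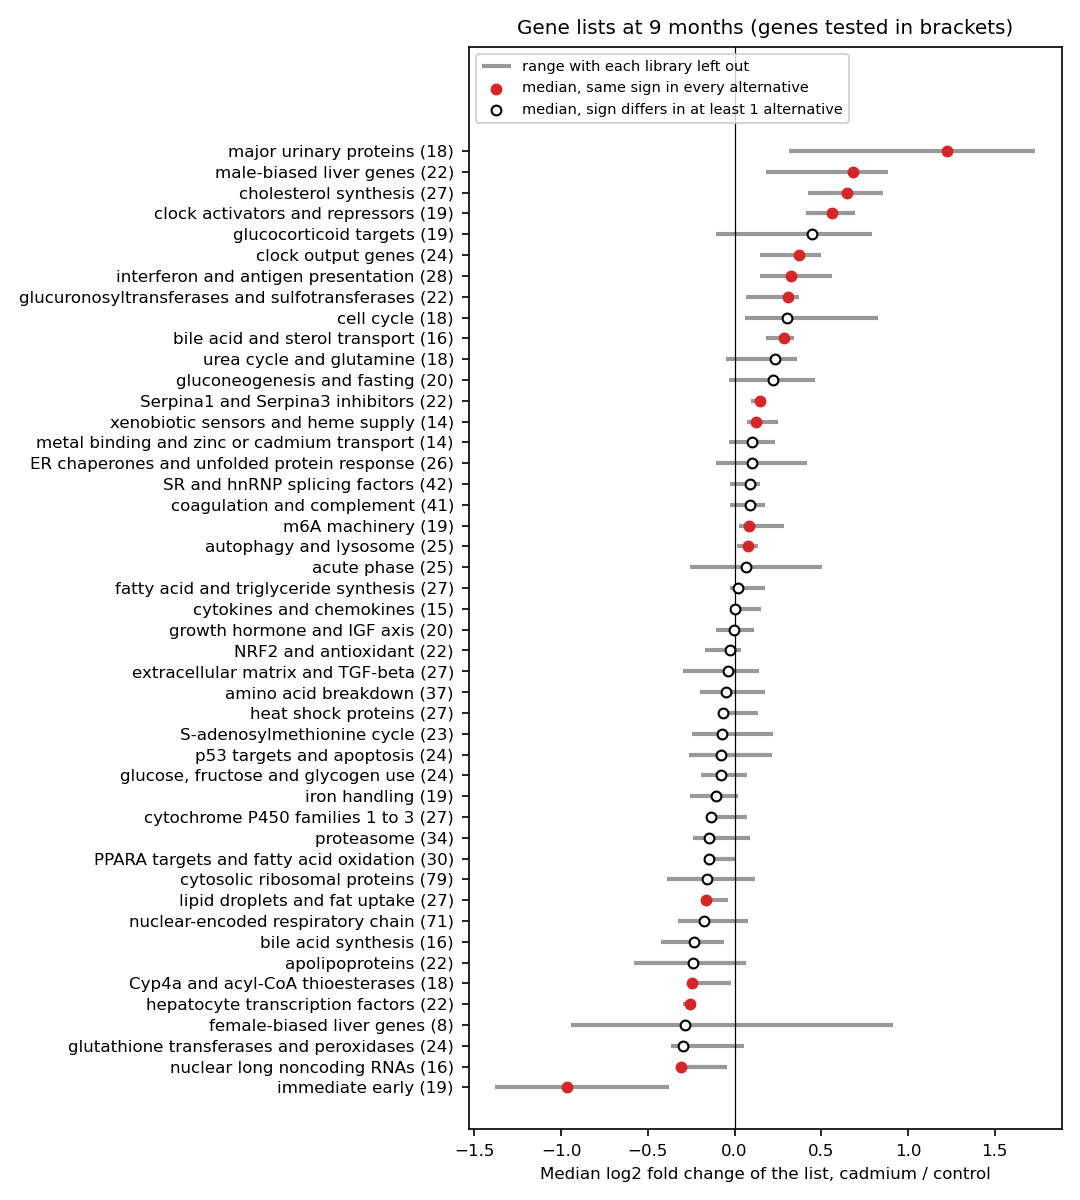
Median log2 fold change of each gene list (points), with the range over the fits that leave out 1 library (lines) and the number of genes tested in brackets. Filled points kept their sign in every alternative. Among them, clock, cholesterol synthesis, major urinary protein and male-biased lists lie above zero, and immediate early and hepatocyte transcription factor lists below. Lists with medians near zero, such as the m6A machinery at 0.08, also kept their sign.

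Set beside the 3-month comparison, which has its own controls, the 30 leading genes behaved unevenly. Of the 15 above controls at 9 months, 11 had the same sign at 3 months. Of the 15 below, 10 had the same sign. Over all genes 46.7% had the same sign at both times. The median log2 fold change was 2.23 at 9 and 0.94 at 3 months for the upper set, and -1.58 and -0.14 for the lower set. As the sets were chosen on the 9-month values, a smaller value at 3 months is not a finding.

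At 3 months Dbp read 0.183 and 0 CPM in controls against 9.77, 17.0 and 31.4 CPM, and Per3 read 0.183 and 0 against 12.2, 43.6 and 71.1 CPM. The controls held 1 count of each gene, so no fold is given for them. Tef had a log2 fold change of 2.77 ± 0.44 at 3 months, and Clpx, Chka, Insig2 and Cdkn1a had -2.06, -1.81, -2.04 and -4.48. Other genes stood above controls at 9 months with values near or below zero at 3 months. Among them were Xkrx (-0.58 ± 0.47), Slc20a1 (-0.71 ± 0.51), Map2k6 (-0.44 ± 0.71) and Slc46a3 (0.10 ± 0.62). Their 3-month groups overlapped and their 3-month controls lay far apart, as for Slc20a1 at 12.4 and 91.7 CPM. Cyp4a14, Fgf21 and Id2, below controls at 9 months, had 1.495 ± 0.87, 0.69 ± 1.24 and 0.77 ± 0.37 at 3 months. The 3-month groups of Cyp4a14 and Fgf21 overlapped.

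The difference between both cadmium effects was tested in 1 fit over the 10 input libraries. In edgeR 0 of 14067 genes passed (0%), with a smallest adjusted p of 0.418, and 1325 had an unadjusted p under 0.05 (9.42%). DESeq2 passed 36. The 3-month controls stood apart: their median correlation with the other 9 libraries was 0.872 and 0.885 in log2 CPM across genes, against 0.919 to 0.937 for the other 8. The count depended on them: without 3-month control 2 it was 321 genes, and without 3-month control 3 it was 587. Pdap1 and Nudt1 were among the 3 genes with the smallest p on the negative side. Pdap1 read 34.4 and 32.6 against 30.4, 15.4 and 13.4 CPM at 9 months, and 2.01 and 3.37 against 16.8, 18.5 and 32.0 CPM at 3 months, where all 3 cadmium livers lay above both controls. The difference of the log2 effects was -3.63 ± 0.67. On the positive side were F2r, the thrombin receptor gene (3.41 ± 0.67), LOC108168411 (3.88 ± 0.80) and Bcas2, a splicing factor gene. Bcas2 read 8.59 and 10.7 against 23.1, 18.5 and 27.7 CPM at 9 months, and 23.4 and 27.7 against 11.2, 9.68 and 14.8 CPM at 3 months, a crossing in which no group overlapped its own controls (2.50 ± 0.55). None of these differences passed the threshold.

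**Figure D5:**
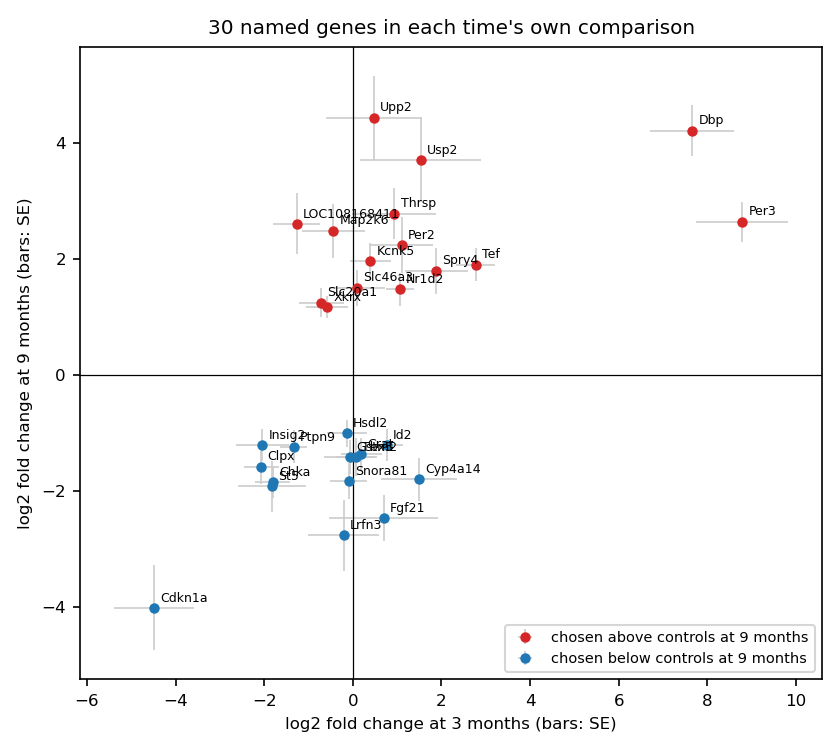
Log2 fold change at 9 months (vertical) against 3 months (horizontal) for the 30 leading genes, with SE bars, each time against its own controls. Dbp, Per3 and Tef lie in the upper right (the 3-month values of Dbp and Per3 rest on 1 control count each and have no defined size), Cdkn1a in the lower left, and 4 of the 15 upper genes and 5 of the 15 lower genes have the opposite sign at 3 months.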

How the data were processed

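Per the file headers, the deposited table holds raw read counts and TPM per RefSeq transcript. The submitters' processing notes name MACS2 2.1.0.20151222, TopHat2 2.0.13 and bcl2fastq, with builds hg19, mm10 and rn6 without roles. Neither the read counter nor its strand setting is given in the sources used here. The deposited TPM sum to 1000000 per column and served only to rank transcript lengths.

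Each of 21769 genes was represented by the transcript whose summed count over the 10 input libraries was highest, since isoforms share reads. Another 12 columns, of 6 libraries, match no sample and were not used. The non-input libraries were not analysed here. Counts of the 5 libraries of 9 months were filtered with filterByExpr, scaled by TMM and fitted with edgeR 4.0.16 (R 4.3.3, quasi-likelihood, common dispersion 0.153, residual degrees of freedom 3). The difference between times was a contrast in a fit over 10 libraries. Tests were two-sided, with Benjamini-Hochberg adjustment over all genes tested and a threshold of 0.05. CPM use library totals over genes, and SE is that of the edgeR fit. Floors cover counting error only. The fit was tested on simulated data.

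The groups, the 57 gene lists (1324 symbols, 1287 matched) and the rule for named genes were chosen with earlier results of these data known. The rule also names the 10 genes with the highest level, Mt1, Mt2, Mettl3, Mettl14, all clock-list members, and 3 genes per direction of the difference between times. A selection of these is printed, and some genes are not reported here. Alternatives were DESeq2 1.42.0, its size factors, limma voom (limma 3.58.1) with library weights, other scalings and filters, sums over transcripts, a block for replicate number, and fits without 1 or 2 libraries. Python 3.11.15 with pandas 2.3.3 and matplotlib 3.10.9 was used for tables and figures.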

Additional observations from a re-analysis of the deposited data

How the results depend on the processing

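Depth and replicate number limit this comparison: with 2 controls, 1 library can set a gene's direction, and genes near 1 CPM rest on a few counts. The count of 1 gene at 9 months was 51 in DESeq2 (32 higher and 19 lower, with 7241 genes given no adjusted p), 187 without a low-count filter, 10 with limma voom and library weights, 10 with a robust fit, 6 with pancreas genes left out, 2 with library totals only, 9 at an adjusted p under 0.1, 3 without both pancreas-rich libraries, and 0 with all 10 input libraries or with counts summed over transcripts. With each library left out it ranged from 0 to 2: Cyp4a14 and Adh6-ps1, both lower, without control 1, Upp2 and Dbp, both higher, without cadmium liver 2, and 0 otherwise. The cause of these differences was not tested, beyond the lone control of such fits being assumed to vary like the cadmium livers. The count of 0 for the difference between times was 36 in DESeq2, 208 without the filter, and 0 to 587 with each library left out. With the replicate number as a block the count at 9 months was 60 (34 higher, 26 lower), and 0 for the difference. The block fit at 9 months has fewer residual degrees of freedom than the main fit. In it cadmium liver 3 is alone in its block and adds nothing to the cadmium effect. Deviations from the group mean in same-numbered libraries had r = -0.184 and -0.06 across genes. With 2 controls these deviations mirror each other, so the values cannot show whether the numbers pair libraries.

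Of the 124 genes named, 2037 of the alternative values kept direction and side of the threshold, 156 passed it newly, 8 lost it and 25 changed sign. All 8 losses were of Dbp. The changes of sign were in genes whose log2 fold change is small or set by 1 control or 1 cadmium liver. With a library left out, Mt1 ranged from -0.47 to 1.23, Mt2 from -1.10 to 1.74, Mettl3 from -0.53 to 0.28, Mettl14 from -0.68 to 0.23, Sod1 from -1.44 to 0.048, Fos from -3.86 to 0.20, Cirbp from -0.44 to 0.72 and Rbm3 from -0.62 to 0.33. Without both pancreas-rich libraries Sod1 was 0.19, Nr1d1 -0.15 and Rbm3 0.60. With the replicate block Mettl14 was 0.25, Csnk1e -0.61, Nr1d1 -0.079 and Cirbp -0.16. Mettl3 was 0.13 with counts summed over transcripts, Csnk1e -0.0555 in limma voom and Cirbp -0.017 with library totals only. Of the scalings, library totals only moved the median of all genes most, from 0.00 to -0.06. That median was 0.05 without control 2, 0.04 without control 1 and 0.03 without both pancreas-rich libraries. List medians near these values in those fits are near that of all genes.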
